A study of Mus musculus with 4 samples.

Results

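The G1 cyclins, their kinases and the inhibitors of those kinases were followed in cells of the mouse spleen sorted as marginal zone macrophages. The set holds 10 genes, Ccnd1, Ccnd2, Ccnd3, Ccne1, Ccne2, Cdk4, Cdk6, Cdkn1a, Cdkn1b and Cdkn2c, out of 19057 genes named on the array. All 24 probes that carry exactly 1 of these symbols were taken, and 20 of them lay above the background of at least 1 array. The members were chosen by the intensities of the Ifnar-/- and control arrays, where Ccnd1 was high, while mitotic genes were low, in mice without the type I interferon receptor. Every value of that comparison is therefore a description without a test.

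All mice had the BXD2 background, an inbred strain with spontaneous autoimmune disease, and were 2.5 months old. There was 1 array of BXD2-Ifnar-/- mice given PBS (Ifnar-/-), 1 array of BXD2 mice given 25 µg of sLTβR-Fc intravenously, and 2 arrays of BXD2 mice given PBS (the controls). sLTβR-Fc is a soluble decoy of the lymphotoxin β receptor, and a control Fc protein was not among the arrays analysed here. Each array held pooled cells of 2 mice killed 10 hours after the injection, sorted for low CD11b and surface SIGN-R1 and against I-Ab and the macrophage antigen encoded by Adgre1. The Ifnar-/- and sLTβR-Fc arrays have no replicate, and the labels do not say whether the control arrays came from different mice. Any p-value therefore rests only on the spread between the 2 control arrays, pooled largely across probes, which may be technical.

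D-type cyclins are made in response to growth signals and activate Cdk4 and Cdk6, which phosphorylate the retinoblastoma protein and release E2F transcription factors. E-type cyclins then activate Cdk2 at the entry into S phase. Cdkn1a and Cdkn1b encode p21 and p27, inhibitors that bind cyclin-CDK complexes, and Cdkn2c encodes p18, which binds Cdk4 and Cdk6 directly. Cdkn1a is a classical target of the tumour suppressor p53.

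Intensities were quantile normalised between arrays and still contain background, so differences of dim probes are understated. A gene or probe is called 2-fold higher or lower only where it differed by a log2 of at least 1 from each control array in the same direction. The arrays had between 22569 and 23506 probes above background, out of 45281. Over the 22915 probes compared, the control arrays differed by a median log2 of 0.091, and 0.192% of probes stood 2-fold apart between them. Of the 5 measured marginal zone macrophage markers, all lay above background on all 4 arrays, but Cd209b, which encodes SIGN-R1, was dim, at 152 on the Ifnar-/- array, 145 on the sLTβR-Fc array and 127 and 130 on the controls. Markers of other cells were bright on the same arrays, among them the B cell receptor gene Cd79b at 13760, 6305, 9386 and 9488 in that order, and the myeloperoxidase gene Mpo at 12439, 31594, 25201 and 19311.

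Promoter windows in the RefSeq table (GRCm38.p6) were matched to 7 of the 10 genes by symbol, each running from 250 bases before to 50 bases after an annotated start. Those of Cdkn1a, Cdkn1b and Ccne1 are printed because the brightest probes of these genes passed the limma test on the sLTβR-Fc array, as did that of Ccnd2. Capitals mark matches on either strand to the GC box, searched as GGGCGG, the E-box, searched as CACGTG, or the CCAAT box, searched as those letters. The FOXO motif was searched as TGTTTAC and an E2F motif as TTTNNCGC. The p53 response element, a pair of decamers, was searched with at most 1 mismatch over its 20 bases and is also in capitals. None of these matches overlapped another in the windows printed.
Cdkn1a, upstream start, chr17:29090729-29091028, + strand: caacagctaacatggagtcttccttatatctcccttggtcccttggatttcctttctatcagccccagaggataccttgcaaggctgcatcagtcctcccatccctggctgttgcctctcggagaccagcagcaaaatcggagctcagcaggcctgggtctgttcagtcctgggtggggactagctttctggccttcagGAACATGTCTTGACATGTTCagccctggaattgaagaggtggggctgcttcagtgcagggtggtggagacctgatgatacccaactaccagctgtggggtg
Cdkn1a, downstream start, chr17:29093519-29093818, + strand: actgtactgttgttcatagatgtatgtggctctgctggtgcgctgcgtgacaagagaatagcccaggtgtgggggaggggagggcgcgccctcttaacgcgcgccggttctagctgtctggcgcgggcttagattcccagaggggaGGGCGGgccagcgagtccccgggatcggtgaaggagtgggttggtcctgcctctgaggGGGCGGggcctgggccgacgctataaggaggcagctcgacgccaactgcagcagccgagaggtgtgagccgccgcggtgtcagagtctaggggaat
Cdkn1b, chr6:134920151-134920450, + strand: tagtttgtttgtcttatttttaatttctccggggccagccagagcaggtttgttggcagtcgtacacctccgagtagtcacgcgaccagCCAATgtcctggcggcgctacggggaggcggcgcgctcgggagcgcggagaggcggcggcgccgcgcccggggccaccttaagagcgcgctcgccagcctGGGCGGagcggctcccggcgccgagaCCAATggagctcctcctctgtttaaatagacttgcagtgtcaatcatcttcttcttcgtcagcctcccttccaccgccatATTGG
Ccne1, chr7:38107441-38107740, - strand: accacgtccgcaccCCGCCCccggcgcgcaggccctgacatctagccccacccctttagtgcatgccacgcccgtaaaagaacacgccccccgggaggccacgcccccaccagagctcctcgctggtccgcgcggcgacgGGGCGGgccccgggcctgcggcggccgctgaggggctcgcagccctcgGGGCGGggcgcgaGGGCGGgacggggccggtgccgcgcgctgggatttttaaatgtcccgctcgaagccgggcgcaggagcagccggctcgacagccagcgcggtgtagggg

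The upstream Cdkn1a window holds a match to the p53 response element 51 to 32 bases before the start, and such a match occurs in 29 of 32851 promoter windows of this length (0.0883%). The downstream Cdkn1a window holds 2 GC boxes, the Ccne1 window 4 and the Cdkn1b window 1, against at least 1 in 35.7% of all windows. The Cdkn1b window also holds 3 CCAAT boxes, a motif found in 37.4% of windows. E-boxes occur in 7.15% of windows, the FOXO motif in 3.65% and the E2F motif in 5.17%, and none of these letters is in the 4 windows printed. The Cdk4 window, not printed, holds 4 E-boxes.

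Cyclin D1 stood out among the cyclins on the Ifnar-/- array. The brightest Ccnd1 probe read 4403 in Ifnar-/- cells and 2059 after sLTβR-Fc, against 1307 and 1474 on the controls. A further probe read 3760 and 1653, against 1183 and 1220, and the dimmest 758 and 188, against 255 and 236. All 3 probes were thus higher on the Ifnar-/- array than on any other array. Their log2 differences from the control mean on that array were 1.67, 1.65 and 1.63, or 3.17-fold, 3.13-fold and 3.09-fold, and the control arrays differed on them by 0.17, 0.04 and -0.11. Ccnd1 ranked 14 from the highest of 14203 genes, each taken by its brightest probe. Without scaling between arrays the difference was 1.30, on a scale on which all genes had a median of -0.15. From arrays of sorted cells, more cells of a type and more RNA per cell cannot be told apart.

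The other D cyclins gave a different picture on the Ifnar-/- array. Ccnd2, the D cyclin typical of lymphocytes, read 2776 in Ifnar-/- cells and 1817 after sLTβR-Fc, against 3005 and 3221 on the controls. Its next probe read 2310 and 1408, against 2085 and 2515, and another 495 and 557, against 616 and 687. The Ifnar-/- array lay below both controls on the brightest probe and the dimmest of these and between them on the other, with log2 differences of -0.16, -0.40 and 0.01. The fourth Ccnd2 probe was not above background on any array. Ccnd3, which drives the division of thymocytes and red cell precursors, read 3003 in Ifnar-/- cells and 2631 after sLTβR-Fc, against 2856 and 2916 on the controls. Its brightest probe thus stayed within a log2 of 0.06 of the control mean on the Ifnar-/- array, and its dim probes differed by -0.18 and 0.07.

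**Figure D1:**
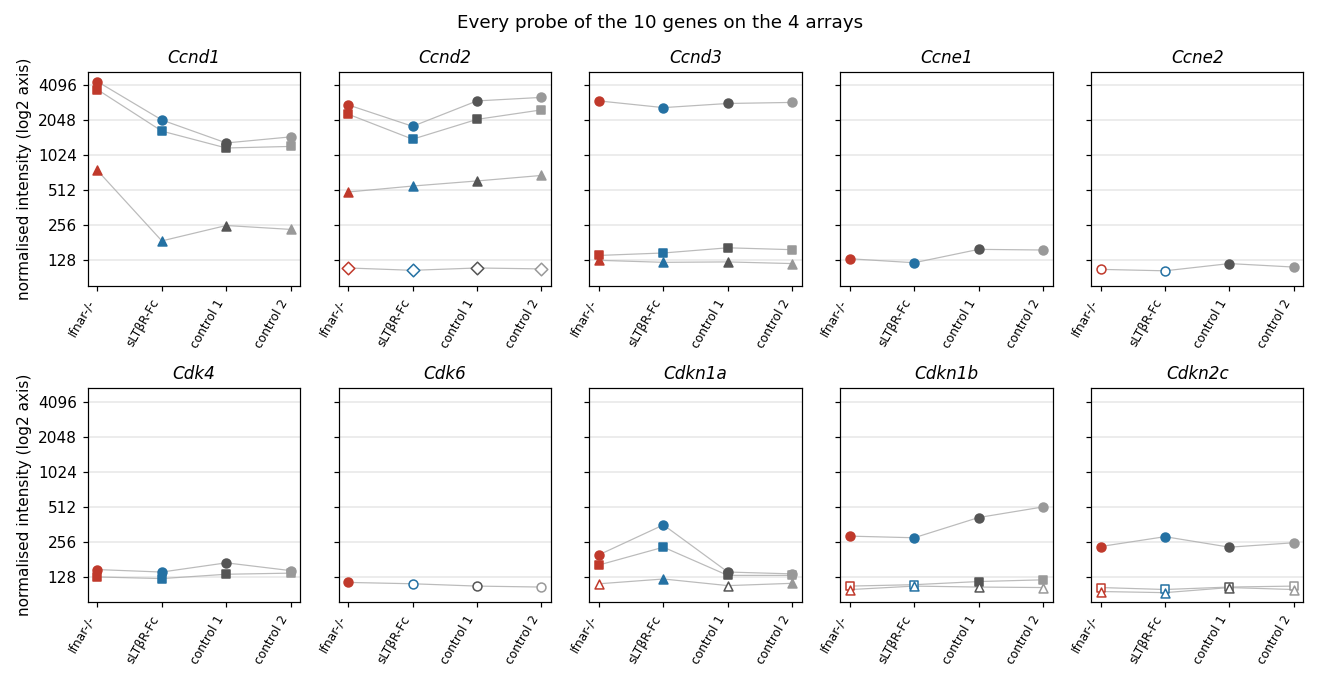
Normalised intensity (log2 axis) of all 24 probes of the 10 genes on the Ifnar-/-, sLTβR-Fc and control arrays, 1 panel per gene, with a grey line joining the values of a probe; open symbols mark values not above background. The 3 Ccnd1 probes are highest on the Ifnar-/- array, and the 2 brighter Cdkn1a probes on the sLTβR-Fc array.

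The E cyclins and the kinases were dim. Ccne1 read 132 in Ifnar-/- cells and 122 after sLTβR-Fc, against 159 and 157 on the controls, so both lay below both controls. Ccne2 was above background only on the controls (120 and 112) and was at least 1.03-fold lower on either of the other arrays, a bound set by the dimmest probe still above background. Cdk4 read 147 and 140 on those arrays, against 168 and 144 on the controls, and its further probe 127 and 123, against 134 and 137. Its brighter probe on the Ifnar-/- array lay between the controls. Cdk6 was above background only on the Ifnar-/- array, at 114, at least 1.02-fold higher than the controls, and its single probe was not above background on the remaining 3 arrays. Its log2 difference on the Ifnar-/- array was 0.006 without scaling and 0.295 with upper quartile scaling, beside medians of -0.15 and 0.14 for all genes.

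The inhibitors differed from one another. Cdkn1b read 285 in Ifnar-/- cells and 276 after sLTβR-Fc, against 412 and 508 on the controls. Both arrays lay below both controls, at log2 differences of -0.68 and -0.73, while the control arrays stood 0.30 apart. A further Cdkn1b probe was above background only on the controls, at least 1.05-fold lower on each of the other arrays, and the third was not above background anywhere. Cdkn2c read 232 on the Ifnar-/- array, between the controls at 229 and 250, and 282 on the sLTβR-Fc array, above both. Its other 2 probes were not above background on any array.

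Cdkn1a was the member with the largest difference on the sLTβR-Fc array after normalisation, though without scaling between arrays Ccnd2 and Cdkn1b differed by more, as lower. Its brightest probe read 197 in Ifnar-/- cells and 356 after sLTβR-Fc, against 140 and 135 on the controls. The next probe read 161 and 229, against 131 and 131. On these 2 probes the sLTβR-Fc array was highest and the Ifnar-/- array lay between it and the controls. The third probe read 111 and 122, against 107 and 112, and was above background only on the sLTβR-Fc array and control 2. On the Ifnar-/- array the log2 differences of the 3 probes were 0.52, 0.30 and 0.02.

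Counted over the set, 1 of 10 genes was 2-fold higher on the Ifnar-/- array, Ccnd1, and 0 were 2-fold lower. By the same rule 0.584% of all 14203 genes were higher and 0.972% lower. Of the 20 probes compared, 3 were 2-fold higher, all of them Ccnd1 probes, against 0.497% of all probes. By brightest probe 4 genes lay above both controls and 4 below both, against 42.7% and 35.3% of all genes. The median log2 difference of the set was -0.06, beside 0.02 for all genes. As Ccnd1 was the reason for the choice of the set, these counts describe the choice.

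The sLTβR-Fc array did not enter the choice, although it is compared with the same 2 control arrays. limma with Benjamini-Hochberg adjustment over 22915 probes called 2 member probes higher and 4 lower of the 20 compared, where 6.69% of all probes were called higher and 6.78% lower. By brightest probe these were 1 gene higher, Cdkn1a, and 3 lower, Ccnd2, Cdkn1b and Ccne1, where 8.14% and 6.17% of genes were called. By the 2-fold rule 1 gene, Cdkn1a, was higher and 0 were lower, against 1.04% and 0.486% of all genes. By brightest probe 4 members lay above both controls and 6 below both, against 43.9% and 35.9% of all genes, and the median log2 difference of the set was -0.14, beside 0.02 for all genes.

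Cdkn1a rose on the sLTβR-Fc array by a log2 of 1.37 ± 0.13 (SE) on its brightest probe, 2.59-fold the control mean (limma, adjusted p = 3.82e-10). The next probe rose by 0.81 ± 0.12 (adjusted p = 2.04e-06, limma), and the dimmest probe was at 0.15 ± 0.09 (adjusted p = 0.248, limma). Without scaling between arrays the brightest probe was at 0.87. With quantile normalisation the mean of the 3 Cdkn1a probes was at 0.78. Neither value reached the 2-fold rule. The printed upstream window of this gene holds a match to the p53 response element, and its downstream window does not. The part of p53 in the Cdkn1a value was not tested. Of 18 other p53 target genes measured, limma called 3 higher and 2 lower on this array, beside 8.14% and 6.17% of all genes.

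The 3 higher p53 targets, named after their values were seen, were Tnfrsf10b, a death receptor, Plk2, a polo-like kinase, and the stress gene Gadd45a. Tnfrsf10b read 360 on the sLTβR-Fc array against 173 and 203 on the controls (log2 0.94), Plk2 234 against 142 and 138 (log2 0.74) and Gadd45a 262 against 207 and 174 (log2 0.47). The lower ones were Sesn1, a sestrin, at 1619 against 2728 and 2651, and Rrm2b, a subunit of ribonucleotide reductase, at 333 against 484 and 500. The p53 target list had a median log2 difference of -0.06, so the called members lay on either side of a centre near 0. On the Ifnar-/- array its median was -0.04, and 1 member, Trp53inp1, was 2-fold lower, at 907 against 1823 and 1928.

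Ccnd2 fell on the sLTβR-Fc array by 0.78 ± 0.20 (SE) on the log2 scale, to 0.584 times the control mean (limma, adjusted p = 0.00535). Its next probe fell by 0.70 ± 0.21 (adjusted p = 0.0209, limma), and the third was at -0.22 ± 0.21 (adjusted p = 0.544, limma). All 3 lay below both controls. Without scaling between arrays the brightest probe was at -1.46 and 2-fold lower, beside a median of -0.23 for all genes. T cell markers lay low on the same array, 8 of 9 below both controls, with a summed level of 4814 on the sLTβR-Fc array against 8091 and 9695 on the controls, and 6 of 7 B cell markers did so, at 10861 against 15896 and 15168. Their part in the Ccnd2 value was not tested. On the Ifnar-/- array the T cell sum was 5798 and the B cell sum 23218, against those same control sums.

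Cdkn1b fell on the sLTβR-Fc array by 0.73 ± 0.19 on the log2 scale (SE; limma, adjusted p = 0.00581), to 0.603 times the control mean. Ccne1 fell by 0.37 ± 0.11 (adjusted p = 0.0143, limma), to 0.773 times. With scaling by the upper quartile, under which the median of all genes was 0.44 on this array, Ccne1 was at 0.13 instead. Without scaling between arrays Cdkn1b was at -1.31 and 2-fold lower, beside a median of -0.23 for all genes. With quantile normalisation the mean of its probes above background was at -0.42.

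Ccnd1 did not pass on the sLTβR-Fc array. Its brightest probe was at 0.57 ± 0.21 (SE; limma, adjusted p = 0.0647) and the next at 0.46 ± 0.21 (adjusted p = 0.159, limma), both above both controls. The dimmest probe was below both, at -0.38 ± 0.17 (adjusted p = 0.144, limma). Without scaling between arrays the brightest probe was at -0.12, beside a median of -0.23 for all genes, and in the fit limited to probes above background on all 4 arrays it passed (adjusted p = 0.0326, limma), as it did with upper quartile scaling (adjusted p = 0.0195, limma). The dimmest probe passed as lower without scaling, at -0.82 (adjusted p = 0.00258, limma). Among the remaining members, Ccnd3, Ccne2, Cdk4, Cdk6 and Cdkn2c had brightest probes between -0.16 and 0.24, none of which passed. Their adjusted p-values lay between 0.231 and 0.713. Scaling changed some of these calls and signs, but not the signs of Ccnd3 and Cdk6 or the lack of a call for Cdkn2c. Without it Ccnd3, Ccne2 and Cdk4 passed as lower (limma, adjusted p = 0.0101, 0.0418 and 0.0348) and Cdkn2c was at -0.30, and with upper quartile scaling Cdk6 passed as higher (adjusted p = 0.0138, limma) while Ccne2 and Cdk4 were at 0.43 and 0.29.

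These tests rest on 1 residual degree of freedom, that of the control pair, and take the lone array to vary as the controls do. Most of the spread behind each p-value is shared across probes, not that of the probe itself. For this shared spread limma used 40.8 prior degrees of freedom in the main fit, and 0.875 in the fit with a floor. With dim values raised to a floor at the background limit, it called 0 of 22915 probes (5166 at an unadjusted p under 0.05), and the brightest Cdkn1a, Ccnd2, Ccne1 and Cdkn1b probes had adjusted p-values of 0.154, 0.169, 0.164 and 0.26.

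**Figure D2:**
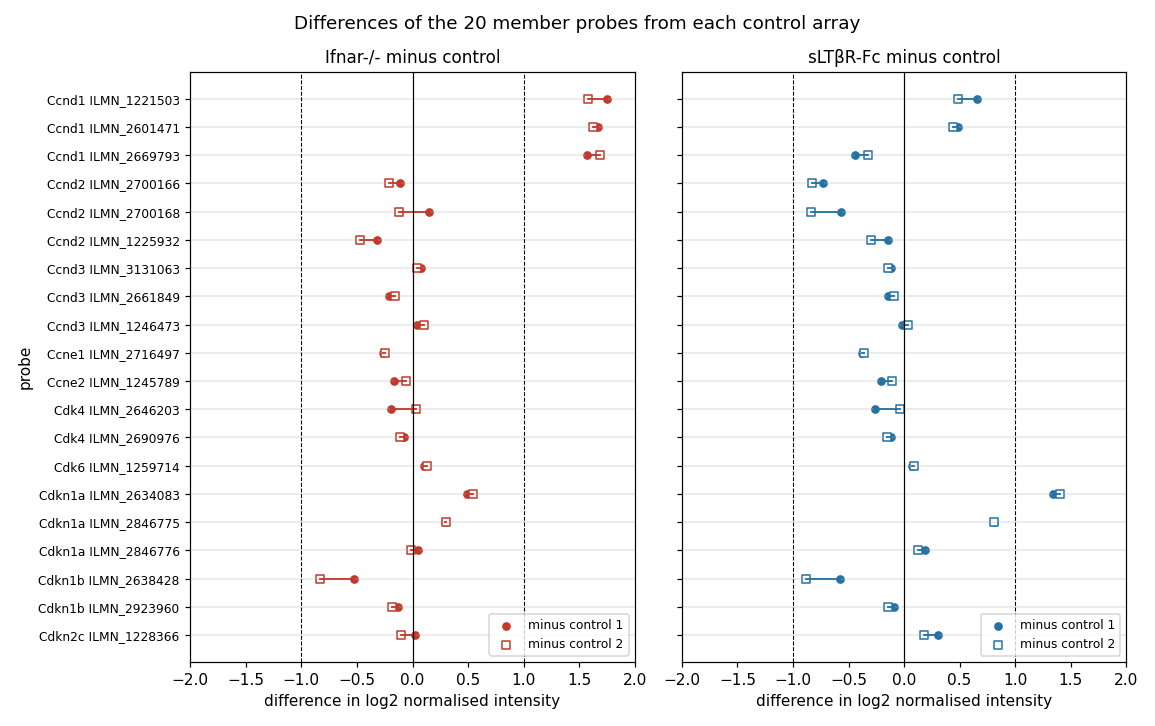
Difference in log2 normalised intensity of the 20 member probes above background on at least 1 array, from control 1 (filled circles) and control 2 (open squares), with the Ifnar-/- array on the left and the sLTβR-Fc array on the right; dashed lines mark the 2-fold rule. The 3 Ccnd1 probes lie beyond it on the left, and 1 Cdkn1a probe on the right.

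Genes that act with the set were described by lists. Of 23 measured regulators of the retinoblastoma-E2F axis and of CDK activity, 14 lay below both controls and 5 above both on the Ifnar-/- array, none 2-fold, at a median log2 difference of -0.16. E2f1, an activating E2F, was at -0.55 there, Rbl1, the pocket protein p107, at -0.69, and Cdk2, the partner of the E cyclins, at 0.31. On the sLTβR-Fc array the list's median was -0.14, and limma called 1 gene higher and 2 lower, shares near the 8.14% and 6.17% of all genes, so the count says nothing particular of the list. The lower ones were Fbxw7, which targets cyclin E for degradation, at 300 against 708 and 466 on the controls, and E2f3, at 185 against 280 and 229. The higher one was Cdkn1c, the third inhibitor of the p21 and p27 family, at 161 against 128 and 128. All 6 genes named from this list were picked after their values were seen.

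DNA replication and mitosis genes were low on the Ifnar-/- array, where Ccnd1 was high. All 24 measured DNA replication genes lay below both controls, with a median of -0.50 and 4 genes 2-fold lower. Of 23 mitosis genes 21 did so, with a median of -0.52 and 1 gene 2-fold lower. Of all genes 35.3% lay below both controls and 0.972% were 2-fold lower. Low mitotic genes on this array were part of the reason for choosing the set, and both lists were written with earlier results known. The list counts on this array are therefore a description only. Rrm2, a subunit of ribonucleotide reductase, read 299 on the Ifnar-/- array against 924 and 766 on the controls, Rrm1, the other subunit, 888 against 2557 and 2032, Cdc6, a replication licensing factor, 318 against 855 and 739, and Fen1, a flap endonuclease, 483 against 1185 and 987. The mitotic kinase gene Plk1 stood at 432 against 1352 and 1158. On the sLTβR-Fc array, where Cdkn1a was high, the medians were -0.07 and 0.00, and limma called 0 DNA replication genes higher and 3 lower, and 1 mitosis gene higher and 1 lower, where 8.14% and 6.17% of all genes were called. The 3 lower were Mcm4, a helicase subunit, Cdc6 and the checkpoint kinase gene Chek1, at log2 differences of -0.51, -0.61 and -0.50. Mcm4, Chek1 and the mitosis genes called were named after their values were seen. In mitosis Foxm1, a transcription factor of the G2 phase, was at 0.44 and Cenpf, a centromere protein, at -0.46.

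**Figure D3:**
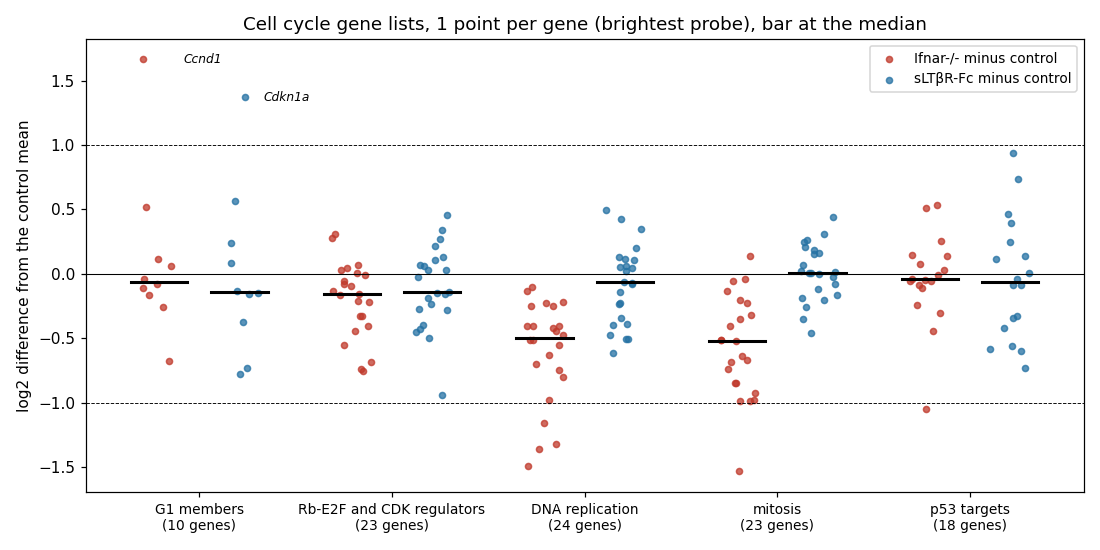
Log2 difference from the control mean for each gene of the set and of 4 lists, by brightest probe, with the Ifnar-/- array in red left of the sLTβR-Fc array in blue, black bars at the medians and dashed lines at 2-fold. DNA replication and mitosis genes have medians of -0.50 and -0.52 in Ifnar-/- cells and of -0.07 and 0.00 after sLTβR-Fc.

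Markers of cells that divide in the spleen or express these genes also differed between the arrays. Of 12 neutrophil markers, 11 lay below both controls on the Ifnar-/- array, with a summed level of the list of 19058 against 51091 and 35275. The other, Retnlg, was 2-fold higher there, at 1286 against 300 and 268. On the sLTβR-Fc array the neutrophil sum was 70806, but only 6 of the 12 lay above both controls and 2 below both, at a median of 0.17. Of these 12 markers 2 were 2-fold higher there, Elane at 5095 against 1039 and 771, and Prtn3 at 12678 against 3985 and 2980. Of 9 erythroid precursor markers, 6 lay below both controls on the Ifnar-/- array, with a summed level of 9063, or 9169 on the sLTβR-Fc array, against 21103 and 9018 on the controls. After sLTβR-Fc 5 of the 9 lay below both controls and 0 above both, at a median of -0.495, with Klf1 and Ermap 2-fold lower. Conventional dendritic cell markers lay above both controls in 7 of 9 on the Ifnar-/- array, where their sum was 5587 against 4656 and 4746. All 7 B cell markers lay above both controls on this array, at a median of 0.54. So did 4 of 6 NK cell markers, at a median of 0.66 and a sum of 20610 against 18245 and 20243. Of 6 plasma cell markers 3 did, at a sum of 8985 against 5655 and 6369, and of 5 plasmacytoid dendritic cell markers 1, at 11092 against 10789 and 10073. Red pulp macrophage markers summed to 2081 against 5202 and 2655, with Slc40a1, the iron exporter, and the adhesion gene Vcam1 2-fold lower, while Adgre1, against whose product the cells were sorted, read 1017 against 629 and 306, above both but not 2-fold from each. The marginal zone macrophage markers summed to 1265 in Ifnar-/- cells and 1462 after sLTβR-Fc, against 1661 and 1002 on the controls, which brackets both. Stromal and endothelial markers, cells in which cyclin D1 is common, summed to 1703 and 1924 against 1815 and 1685, with Col1a1 and Madcam1 not above background on any array. The part of these cells in the Ccnd1 value was not tested.

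On the sLTβR-Fc array all 4 measured eosinophil markers lay above both controls, with a sum of 27822 against 4976 and 5657, while Siglecf and Ccr3 were not above background on any array. All 8 mast cell and basophil markers did so too, with a sum of 41202 against 14504 and 18484. The part of these cells in the Cdkn1a value was not tested. The eosinophil sum on the Ifnar-/- array was 4205, and the mast cell and basophil sum 13684, both below the controls. The lists' members did not all follow those sums, since 4 of the 8 mast cell and basophil markers lay above both controls there and 2 below both, at a median log2 difference of 0.21.

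The 5 genes whose profile over the 4 arrays lay nearest to that of Ccnd1, by Euclidean distance of log2 values centred on the control mean, were Adam23, Sf1, Serpinb6b, Cxcr4 and Myadm. Their distances were 0.232, 0.236, 0.268, 0.291 and 0.301. Each gene was taken by its brightest probe. The dimmest Ccnd1 probe did not share that profile on the sLTβR-Fc array, at a log2 difference of -0.38 against 0.57 for the brightest. Adam23, a membrane protein of the ADAM family, read 797 in Ifnar-/- cells and 434 after sLTβR-Fc, against 240 and 319 on the controls. Cxcr4, the receptor of the chemokine Cxcl12, read 917 and 521, against 345 and 324. Sf1, a splicing factor, Serpinb6b, a serpin, and Myadm, a membrane protein of myeloid cells, had log2 differences of 1.47, 1.46 and 1.47 in Ifnar-/- cells and of 0.45, 0.40 and 0.49 after sLTβR-Fc.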

How the data were processed

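Trizol RNA was amplified to biotinylated cRNA (Ambion MessageAmp) and hybridised to single-colour Illumina arrays, per the labels' protocols. GenomeStudio 2011.1 is named in the submitters' processing notes, and no source used here states a background correction or normalisation. The deposited values are linear intensities of 45281 probes on 4 arrays, of which 34885 carry 1 gene symbol, 18 several and 10378 none in the platform annotation. The members, lists and tests were chosen with earlier results of these data known. Background was the most frequent intensity, and its limit the 95% point of the noise mirrored about it (between 107.4 and 116.4). Values were quantile normalised and converted to log2 without a floor, because values at a floor have no spread. A gene stands for its probe with the highest mean among those above background on at least 1 array. limma 3.58.1 (R 4.3.3) fitted 3 group means with a mean-variance trend, with Benjamini-Hochberg adjustment to 0.05, and was tested on simulated data. All simulated arrays were drawn with the spread of the control pair, so that run cannot show whether a lone array varies as the controls do. All 10 members were found by gene identifier in the RefSeq table. Every member probe is reported, as are cell cycle and p53 list genes 2-fold from both controls (at most 6 per list and array) and the 5 nearest to Ccnd1. Marker lists are given as counts and sums, with a few members named; the rule allowed up to 2 of the brightest per list. Other genes were named after their values were seen. The number of arrays limits the precision.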

Additional observations from a re-analysis of the deposited data

How the results depend on the processing

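Ccnd1 remained 2-fold higher on the Ifnar-/- array under each of the 6 alternatives, with log2 differences from 1.30 (values as deposited) to 1.75 (without control 2), and the count of members 2-fold on that array stayed at 1. Leaving out a control could not undo the Ccnd1 call, which already required 2-fold from each control. The floor could not change it either, as it lies far below the Ccnd1 values. On the sLTβR-Fc array that count was 1, against 2 as deposited (Ccnd2 and Cdkn1b, both lower) and 0 with the mean of all probes of a gene. Genes 2-fold on the Ifnar-/- array numbered 221 (83 higher), against 327 as deposited (30 higher and 297 lower), 121 with the mean of probes and between 277 and 425 without a control. On the sLTβR-Fc array they numbered 217 (148 higher), against 685 as deposited (34 higher), 138 with the mean of probes and between 325 and 346 without a control. Probes called by limma there numbered 3088 (1534 higher), against 7714 as deposited (224 higher), 12260 with upper quartile scaling (11365 higher) and 0 with the floor, where probes at the floor on both controls have no spread. The median of all genes on the sLTβR-Fc array was -0.23 as deposited and 0.44 with upper quartile scaling. Ccne1 reversed with upper quartile scaling, to 0.13 (0.128, adjusted p = 0.578, limma). Counts of 2-fold genes without a control could not be lower than the main ones, because the rule then asked for 2-fold from only 1 control array. The cause of the remaining changes was not tested. Leaving out a control leaves limma no residual degree of freedom, so those settings gave values only. No paired analysis was made, as the Ifnar-/- and sLTβR-Fc groups have 1 array each and their titles carry no replicate number to match with a control. Dim probes such as those of Ccne2, Cdk4 and Cdk6 limit what these arrays can show.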
